A study of Homo sapiens with 12 samples.

Results

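The genes described here are 10 members of the matrix remodelling system: the matrix metalloproteinases MMP1, MMP2, MMP3, MMP7, MMP9, MMP10, MMP13 and MMP14, and the tissue inhibitors TIMP1 and TIMP2. They were named with results of these arrays in view, and MMP1 was chosen by its values in AGS cells, so its values there are given as a description with no test. For each symbol the transcript cluster, the set of probes that the array summarises as 1 transcribed locus, with the highest mean over the 12 arrays was taken. The annotation used gave 14884 symbols to 16098 of the 53617 clusters. A cluster carried the symbol of 6 of the 10 members, and each of the 6 had a single cluster. MMP2, MMP3, MMP7 and MMP9 were not analysed here. MMP1, MMP14, TIMP1 and TIMP2 passed the filter on low values, a mean of at least 4.61 on the log2 scale, and were tested among 8930 genes. MMP10 and MMP13 lay below it and are given as levels only.

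The arrays were Affymetrix Human Gene 2.0 ST arrays of total RNA from AGS, MKN1 and SNU601 cells, 3 human lines derived from gastric cancers. Each was treated with Rhosin, JK136, JK139 or DMSO, with 1 array for each combination, so each treatment had 3 arrays and each line had 4. Rhosin is a small molecule made to bind the GTPase RHOA and keep its exchange factors from activating it. JK136 and JK139 are known here by these code names alone, and DMSO, the usual solvent of such compounds, is the control. The labels state neither doses nor times, nor whether these were equal between compounds, and nothing in them describes a genetic change in any of the groups. All cells grew in RPMI-1640 with 10% fetal calf serum.

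Matrix metalloproteinases are zinc-dependent proteases that cut proteins of the extracellular matrix and of the cell surface. Most are secreted as inactive proenzymes and become active when the propeptide is removed, while the membrane-type members are held at the cell surface. The TIMPs bind active metalloproteinases and block them. MMP1 is the interstitial collagenase, which cuts fibrillar collagens, and its gene lies in a cluster of metalloproteinase genes on the long arm of human chromosome 11. In many cell types its transcription responds to the AP-1 dimers of FOS and JUN proteins and to ETS factors. In stomach tissue these enzymes are made by epithelial, stromal and inflammatory cells, and MMP1 is often studied for its part in tumour invasion.

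Promoter sequences of 3 of the 6 measured members were held in the RefSeq table used here (GRCh38.p14), each from 250 bases before to 50 bases after the start of transcription. They are shown because the AP-1 and ETS genes described further on are known for acting on such promoters, and because these members differ in level: MMP10 lay under the filter on every array, MMP14 and TIMP1 above it. The windows are MMP10 at chr11:102780579-102780878 on the minus strand, MMP14 at chr14:22836335-22836634 on the plus strand and TIMP1 at chrX:47582186-47582485 on the plus strand. Capitals mark the motifs, which were searched on both strands. The letters searched were TGAGTCA for AP-1 and AGGAAG for ETS factors, with TATAAA for the box that places the start of transcription and GGGCGG for the factor Sp1. No motif overlapped another in these windows.
MMP10: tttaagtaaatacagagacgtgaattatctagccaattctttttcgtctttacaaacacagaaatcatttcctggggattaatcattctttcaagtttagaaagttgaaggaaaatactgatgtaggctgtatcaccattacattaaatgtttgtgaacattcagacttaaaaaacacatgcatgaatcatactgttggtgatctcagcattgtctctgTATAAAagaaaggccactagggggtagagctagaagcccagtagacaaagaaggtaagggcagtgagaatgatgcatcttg
MMP14: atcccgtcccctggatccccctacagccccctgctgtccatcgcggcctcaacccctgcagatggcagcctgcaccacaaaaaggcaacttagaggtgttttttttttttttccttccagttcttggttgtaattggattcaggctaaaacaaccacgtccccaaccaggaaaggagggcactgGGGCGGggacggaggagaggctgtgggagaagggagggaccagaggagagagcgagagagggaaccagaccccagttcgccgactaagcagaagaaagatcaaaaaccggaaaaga
TIMP1: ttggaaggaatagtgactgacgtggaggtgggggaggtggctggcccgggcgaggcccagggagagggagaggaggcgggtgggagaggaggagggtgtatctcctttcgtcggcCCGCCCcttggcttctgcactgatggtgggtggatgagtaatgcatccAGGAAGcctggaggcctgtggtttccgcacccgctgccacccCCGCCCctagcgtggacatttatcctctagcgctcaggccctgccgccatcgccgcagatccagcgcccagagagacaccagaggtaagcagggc
The MMP10 window held a TATA motif that began at -31 relative to the start. The MMP14 window held 1 Sp1 motif, at -66, and the TIMP1 window held an ETS motif at -87 and Sp1 motifs on the minus strand at -135 and -45. Of the 35116 promoters of the same length in the table, 4.95% held the AP-1 letters, 33.6% the ETS letters, 11.5% the TATA letters and 45% the Sp1 letters. None of the 3 windows held the AP-1 letters, and the ETS letters were found in the TIMP1 window alone. The promoter of MMP1 was not held in the RefSeq table. A match is a description of letters in this window and no evidence of binding.

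MMP1 was well above the filter in AGS and SNU601 cells and below it in MKN1 cells. In AGS cells its log2 signal was 8.52 with Rhosin, 6.77 with JK136 and 6.83 with JK139, against 5.94 with DMSO. The DMSO array was the lowest of the 4 and the Rhosin array stood apart above the others. In MKN1 cells the log2 signal was 3.27 with Rhosin, 3.36 with JK136 and 3.79 with JK139, against 3.56 with DMSO. All 4 MKN1 arrays lay within a narrow low band. In SNU601 cells it was 7.19 with Rhosin, 7.52 with JK136 and 6.01 with JK139, against 5.99 with DMSO. Here Rhosin and JK136 were high, and JK139 lay beside DMSO. A bulk signal of this kind cannot tell fewer expressing cells from less RNA per cell.

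The place of MMP1 among all 53617 clusters of an array shows the same levels on another scale. In AGS cells MMP1 stood at percentile 96.6 with Rhosin, 86.5 with JK136 and 86.6 with JK139, against 77.4 with DMSO. In MKN1 cells every array put it between percentiles 32.4 and 42.5. In SNU601 cells it stood at percentile 89.7 with Rhosin, 91.7 with JK136 and 78.4 with JK139, against 77.9 with DMSO. Ordered over all 12 arrays, the highest log2 signal was that of AGS with Rhosin, followed by SNU601 with JK136 and SNU601 with Rhosin. AGS with JK139 and AGS with JK136 came next, close together, and SNU601 with JK139, SNU601 with DMSO and AGS with DMSO then lay between 5.94 and 6.01. With 1 array in each combination, neighbours in this order have no spread of their own against which to set their gaps.

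**Figure D1:**
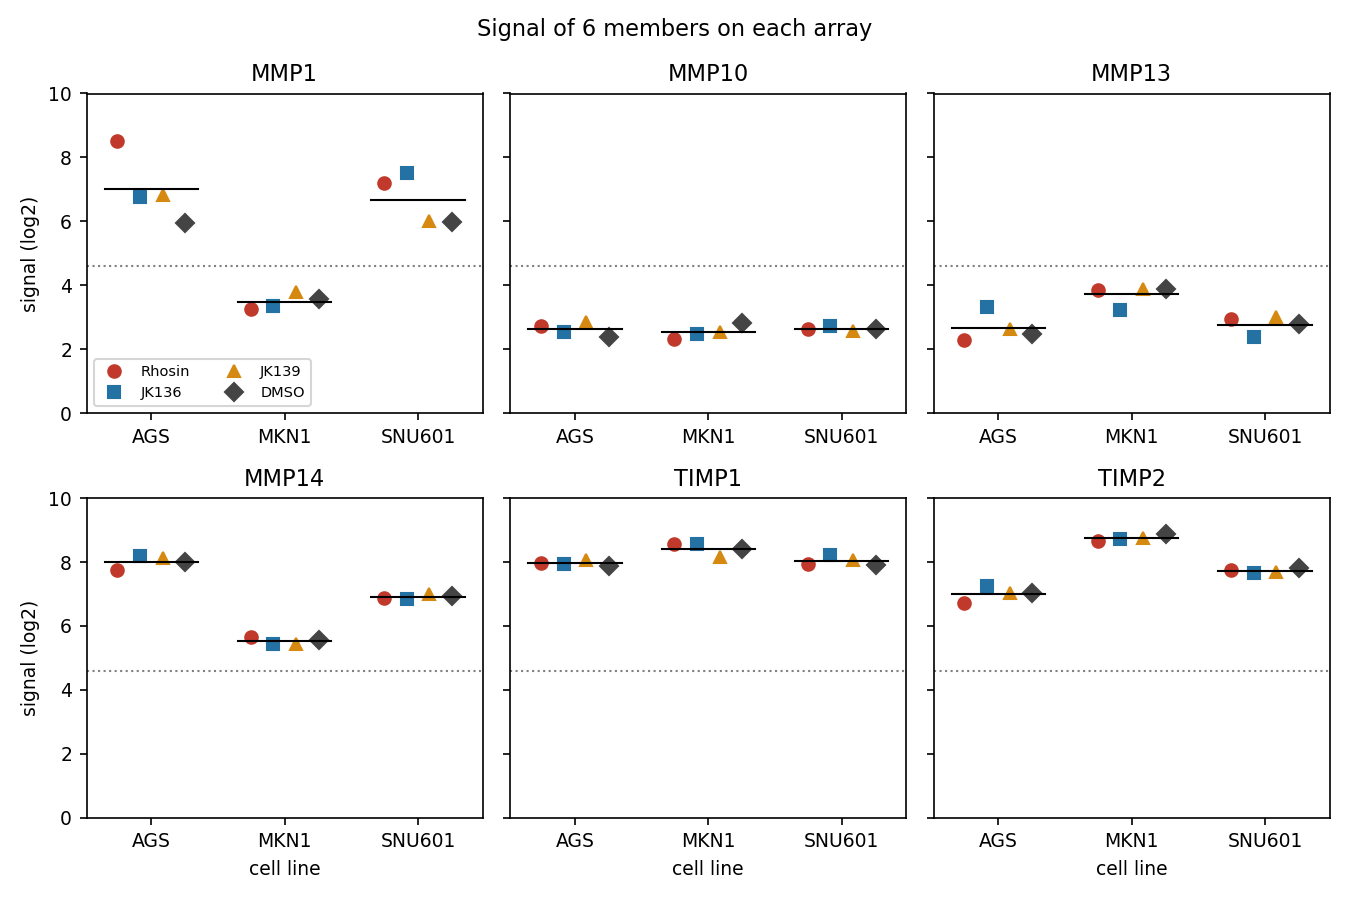
Log2 signal of the 6 measured members on each of the 12 arrays, by cell line, with a symbol for each treatment, a black bar at the mean of the 4 arrays of a line and a dotted line at the filter of 4.61. MMP1 spreads between 5.94 and 8.52 in AGS and stays under the filter in MKN1, MMP10 and MMP13 are under it on every array, and the 3 lines do not overlap for MMP14 or TIMP2, while for TIMP1 they do.

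The difference of MMP1 from DMSO was largest in AGS cells with Rhosin, at 2.58 on the log2 scale, a fold of 5.998. That was the highest difference among the 8930 genes on these 2 arrays, where 0.123% of genes (11 genes) were at least 2-fold higher with Rhosin. With JK136 the AGS difference was 0.83 (1.78-fold), which ranked 50 of 8930 beside 0.269% of genes (24 genes) at least 2-fold higher. With JK139 it was 0.90 (1.86-fold), which ranked 11 beside 0.0336% (3 genes). MMP1 was itself counted at 2-fold with Rhosin and not with JK136 or JK139. These ranks describe the values by which MMP1 was chosen, and nothing is read from them.

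In SNU601 cells, JK136 gave the highest MMP1 difference from DMSO, 1.53 on the log2 scale (2.89-fold, rank 1 of 8930), beside 0.056% of genes (5 genes) at least 2-fold higher. Rhosin gave 1.21 (2.31-fold, rank 3) beside 0.112% (10 genes). JK139 gave 0.02 (1.01-fold, rank 3497) beside 0.0224% (2 genes). The order of the compounds thus differed between AGS and SNU601 arrays, with Rhosin ahead in AGS and JK136 ahead in SNU601.

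In MKN1 cells the MMP1 differences from DMSO were -0.29 with Rhosin, -0.20 with JK136 and 0.23 with JK139 on the log2 scale. The shares of genes at least 2-fold higher in MKN1 were 0.0896% with Rhosin (8 genes), 0.056% with JK136 (5 genes) and 0.0336% with JK139 (3 genes), and MMP1 was not among them. These signals were all under the filter, so the MKN1 values set no direction. Averaged over the 3 compounds, the difference was 1.44 in AGS cells (rank 1 of 8930), -0.09 in MKN1 cells (rank 6505) and 0.92 in SNU601 cells (rank 5). The 3 differences of a line share 1 DMSO array, so they are not independent of each other.

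**Figure D2:**
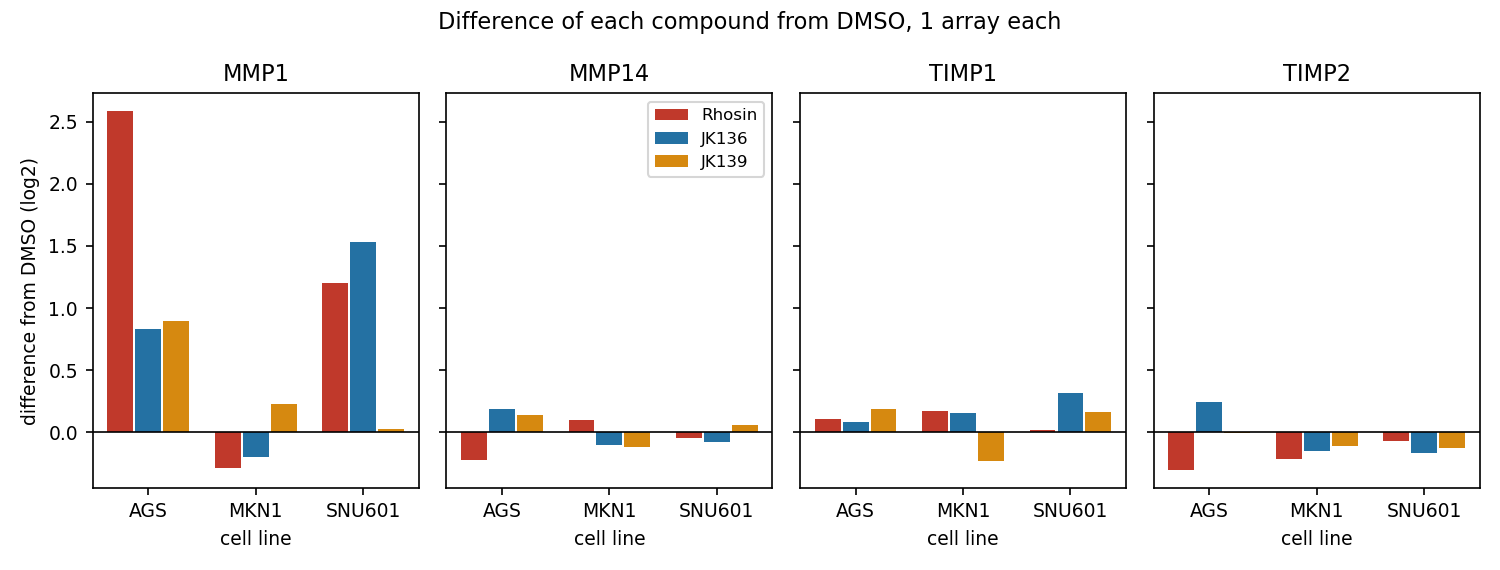
Difference of each compound from DMSO on the log2 scale (vertical axis) for MMP1, MMP14, TIMP1 and TIMP2 in each cell line, 1 array against 1 array, with no error bar. The MMP1 bars reach 2.58 in AGS with Rhosin and 1.53 in SNU601 with JK136, while those of the other 3 genes lie between -0.31 and 0.32.

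Across the 3 lines, the model with treatment and line as terms called no gene in any comparison of treatments. Of 8930 genes, 0% had an adjusted p under 0.05 for Rhosin minus DMSO, JK136 minus DMSO, JK139 minus DMSO, Rhosin minus JK136, Rhosin minus JK139 and JK136 minus JK139, by limma with Benjamini-Hochberg adjustment. The counts of genes at an unadjusted p under 0.05 were 560, 469, 218, 812, 663 and 494 in the same order of comparisons. The confidence interval of a gene of median precision reached 0.242 to either side on the log2 scale. The spread behind these tests is the disagreement of the lines, since no combination of line and treatment was repeated.

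The fitted MMP1 difference was 1.17 ± 0.45 (SE, 3 arrays a treatment) for Rhosin minus DMSO, 0.72 ± 0.45 for JK136 minus DMSO and 0.38 ± 0.45 for JK139 minus DMSO. Between compounds it was 0.45 for Rhosin minus JK136, 0.78 for Rhosin minus JK139 and 0.34 for JK136 minus JK139, each with an SE of 0.45. Single arrays or lines moved these values by more than 1.5 times. Leaving out the AGS Rhosin array brought the Rhosin difference to 0.56, and leaving out the MKN1 arrays brought it to 1.89. Leaving out the SNU601 JK136 array brought the JK136 difference to 0.26, and leaving out the MKN1 arrays brought it to 1.18. The JK139 difference lay between 0.04 without the AGS DMSO array and 0.80 without the MKN1 DMSO array.

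Since MMP1 was chosen for AGS, the 8 arrays of MKN1 and SNU601 were also fitted alone, and there MMP1 was tested. All 4 MKN1 signals lay under the filter, which MMP1 passed through AGS and SNU601, so the MKN1 arrays set no direction in this fit. The members were also named with results of these arrays in view, so the fit is not an independent test. Rhosin minus DMSO was 0.46 ± 0.43 for MMP1 there (SE, 95% confidence interval -0.52 to 1.43, adjusted p = 0.993). JK136 minus DMSO was 0.66 ± 0.43 (adjusted p = 0.941) and JK139 minus DMSO was 0.12 ± 0.43 (adjusted p = 0.999), both by limma. The interval for Rhosin holds both 0 and differences above 2-fold, and 0% of genes were called in these fits. Whether a response shared by the compounds differed between lines was also tested for each gene, by limma's F test of the line by compound interaction. The 3 compounds were pooled there as a single group against the DMSO array of each line, with 6 residual degrees of freedom. Differences between compounds within a line thus counted as error. The F test called 0% of genes, with 244 at an unadjusted p under 0.05. It cannot decide whether the response to a single compound differed between lines, since each combination had 1 array.

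MMP10, stromelysin-2, and MMP13, collagenase-3, are neighbours of MMP1 in the same gene cluster on chromosome 11, and neither reached the filter on any array. The MMP10 log2 signal in AGS cells was 2.72 with Rhosin, 2.53 with JK136 and 2.84 with JK139, against 2.39 with DMSO. In MKN1 cells it was 2.31, 2.48 and 2.53 with Rhosin, JK136 and JK139, against 2.82 with DMSO, and in SNU601 cells the 4 arrays lay between 2.56 and 2.72. MMP13 lay between 2.28 and 3.89 over the 12 arrays, with 3 of the 4 MKN1 arrays at 3.87 or above. The other genes of that cluster with a signal here were also under the filter on all 12 arrays. These were the collagenase MMP8 (2.49 to 3.16), the macrophage elastase MMP12 (2.17 to 2.51), the enamel protease MMP20 (3.28 to 4.03) and MMP27 (2.31 to 2.80). In this group of neighbours, MMP1 was thus the only gene measured here above the filter on any array, and MMP3 and MMP7 of the same cluster were not analysed here.

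MMP14, also called MT1-MMP, is a membrane-type metalloproteinase that cuts collagen at the cell surface and activates pro-MMP2. Its log2 signal in AGS cells was 7.77 with Rhosin, 8.17 with JK136 and 8.13 with JK139, against 7.99 with DMSO. In MKN1 cells it was 5.65 with Rhosin, 5.44 with JK136 and 5.43 with JK139, against 5.55 with DMSO. In SNU601 cells it was 6.88 with Rhosin, 6.85 with JK136 and 6.98 with JK139, against 6.93 with DMSO. The 3 lines did not overlap: AGS averaged 8.01 ± 0.18, MKN1 5.52 ± 0.10 and SNU601 6.91 ± 0.06 (SD, n = 4 arrays of different treatments).

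MMP14 was higher in AGS cells than in MKN1 cells by 2.50 ± 0.10 on the log2 scale (SE, 5.64-fold, limma adjusted p = 9.739e-10). In that comparison 66.3% of all genes were called, 31% as higher and 35.3% as lower in AGS, so a call was common. It was higher in AGS than in SNU601 by 1.10 ± 0.10 (2.15-fold, limma adjusted p = 2.635e-06), where 52.7% of genes were called, 22.8% higher and 29.9% lower. For MKN1 minus SNU601 it was -1.39 ± 0.10 (limma adjusted p = 1.638e-07), where 63.4% were called, 31.1% higher and 32.3% lower. No compound moved MMP14 past the test. Rhosin minus DMSO was -0.06 (95% confidence interval -0.31 to 0.19, adjusted p = 0.946 by limma) and JK139 minus DMSO was 0.03 ± 0.12. JK136 minus DMSO was -3.433e-04 with an interval of -0.25 to 0.25.

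MMP1, compared between the other 2 lines, was lower in MKN1 than in SNU601 by a log2 difference of -3.18 ± 0.39 (SE), 9.09-fold lower. It passed the filter through the AGS and SNU601 arrays alone, so this difference was favoured by the filter and is given without a p-value. The AGS comparisons are likewise description: AGS averaged 7.01 ± 1.08, MKN1 3.49 ± 0.23 and SNU601 6.68 ± 0.79 on the log2 scale (SD, n = 4 arrays). AGS minus MKN1 was 3.52 ± 0.39 (SE, 11.5-fold) and AGS minus SNU601 was 0.34 ± 0.39. The MMP1 levels of AGS and SNU601 arrays overlapped, and those of MKN1 arrays overlapped neither.

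TIMP1, a secreted inhibitor of most metalloproteinases, had log2 signals between 7.87 and 8.57 on all 12 arrays. In AGS cells it was 7.97 with Rhosin, 7.94 with JK136 and 8.05 with JK139, against 7.87 with DMSO. In MKN1 cells it was 8.57 with Rhosin, 8.55 with JK136 and 8.17 with JK139, against 8.40 with DMSO. In SNU601 cells it was 7.94 with Rhosin, 8.23 with JK136 and 8.08 with JK139, against 7.92 with DMSO. The MKN1 arrays were the highest, though the JK139 array of MKN1 lay below the JK136 array of SNU601. AGS minus MKN1 was -0.46 ± 0.10 (SE, limma adjusted p = 0.00137) and MKN1 minus SNU601 was 0.38 ± 0.10 (limma adjusted p = 0.00522). AGS minus SNU601, at -0.08 ± 0.10, did not pass (limma adjusted p = 0.524). Against DMSO, TIMP1 differed by 0.10 ± 0.12 with Rhosin (adjusted p = 0.907), 0.18 ± 0.12 with JK136 (adjusted p = 0.931) and 0.04 ± 0.12 with JK139 in limma's fit.

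TIMP2 inhibits active metalloproteinases and also joins MMP14 at the cell surface in the complex that activates pro-MMP2. Its log2 signal in AGS cells was 6.72 with Rhosin, 7.26 with JK136 and 7.02 with JK139, against 7.02 with DMSO. In MKN1 cells it was 8.65 with Rhosin, 8.71 with JK136 and 8.76 with JK139, against 8.87 with DMSO. In SNU601 cells it was 7.75 with Rhosin, 7.65 with JK136 and 7.69 with JK139, against 7.82 with DMSO. The lines did not overlap, and their order, MKN1 highest and AGS lowest, was the opposite of the order of MMP14. AGS minus MKN1 was -1.74 ± 0.10 (SE, limma adjusted p = 1.836e-08), 3.35-fold lower, and AGS minus SNU601 was -0.73 ± 0.10 (limma adjusted p = 6.353e-05), 1.65-fold lower. MKN1 minus SNU601 was 1.02 ± 0.10 (2.02-fold, limma adjusted p = 2.128e-06). Rhosin minus DMSO was -0.20 ± 0.11 for TIMP2 and did not pass the test (limma adjusted p = 0.821). With JK136 the difference was -0.03 ± 0.11 and with JK139 it was -0.08 ± 0.11.

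Of 15 other metalloproteinases, all had a cluster and 6 passed the filter: MMP11, MMP15, MMP17, MMP23B, MMP24 and MMP25. None of the 6 passed the test against DMSO with any compound. Their median difference was 0.18 with Rhosin, beside -0.02 over all genes, and the largest, 0.23 ± 0.12 for MMP23B (SE), had an adjusted p of 0.801 in limma's fit. Between lines, AGS minus MKN1 called 2 of 6, both higher. These were the membrane-type MMP15 (1.60, limma adjusted p = 3.533e-08) and MMP23B (0.26). The MKN1 mean of MMP23B, 4.57, lay under the filter, which MMP23B passed through AGS and SNU601. Its call was thus favoured by the filter and is given without a p-value. For AGS minus SNU601, 1 was higher, the membrane-anchored MMP25 (0.59, limma adjusted p = 2.916e-04), and 1 lower, MMP15 (-0.34, limma adjusted p = 0.0101). MKN1 minus SNU601 also called MMP25 as higher (0.52, limma adjusted p = 5.220e-04) and MMP15 as lower (-1.94, limma adjusted p = 6.517e-09). In each of the 3 comparisons 2 of 6 were called in either direction, beside 66.3%, 52.7% and 63.4% of all genes.

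MMP16, TIMP3 and TIMP4 were under the filter on the mean of all arrays and had their highest signals in MKN1 cells. MMP16, another membrane-type enzyme, had a log2 signal of 3.33 ± 0.44 in AGS, 6.94 ± 0.25 in MKN1 and 3.35 ± 0.14 in SNU601 cells (SD, n = 4 arrays). TIMP3, the inhibitor that binds to the matrix, had 2.86 ± 0.13 in AGS, 6.75 ± 0.03 in MKN1 and 3.01 ± 0.17 in SNU601 cells. TIMP4 averaged 3.66 in AGS, 5.51 in MKN1 and 4.54 in SNU601 cells, where 2 of 4 arrays lay above the filter. MMP16 and TIMP3 were above it in MKN1 cells alone, the line in which MMP1 was low. RECK, a membrane-anchored inhibitor of metalloproteinases, was the only other inhibitor tested, of 5 listed and 4 with a cluster. It was lower in AGS than in MKN1 by a log2 difference of -0.63 ± 0.14 (SE, limma adjusted p = 0.00214). Its SNU601 mean, 3.59 ± 0.36 (SD, n = 4 arrays), lay under the filter, which RECK passed through AGS and MKN1, so its differences from SNU601 are not given as tests.

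**Figure D3:**
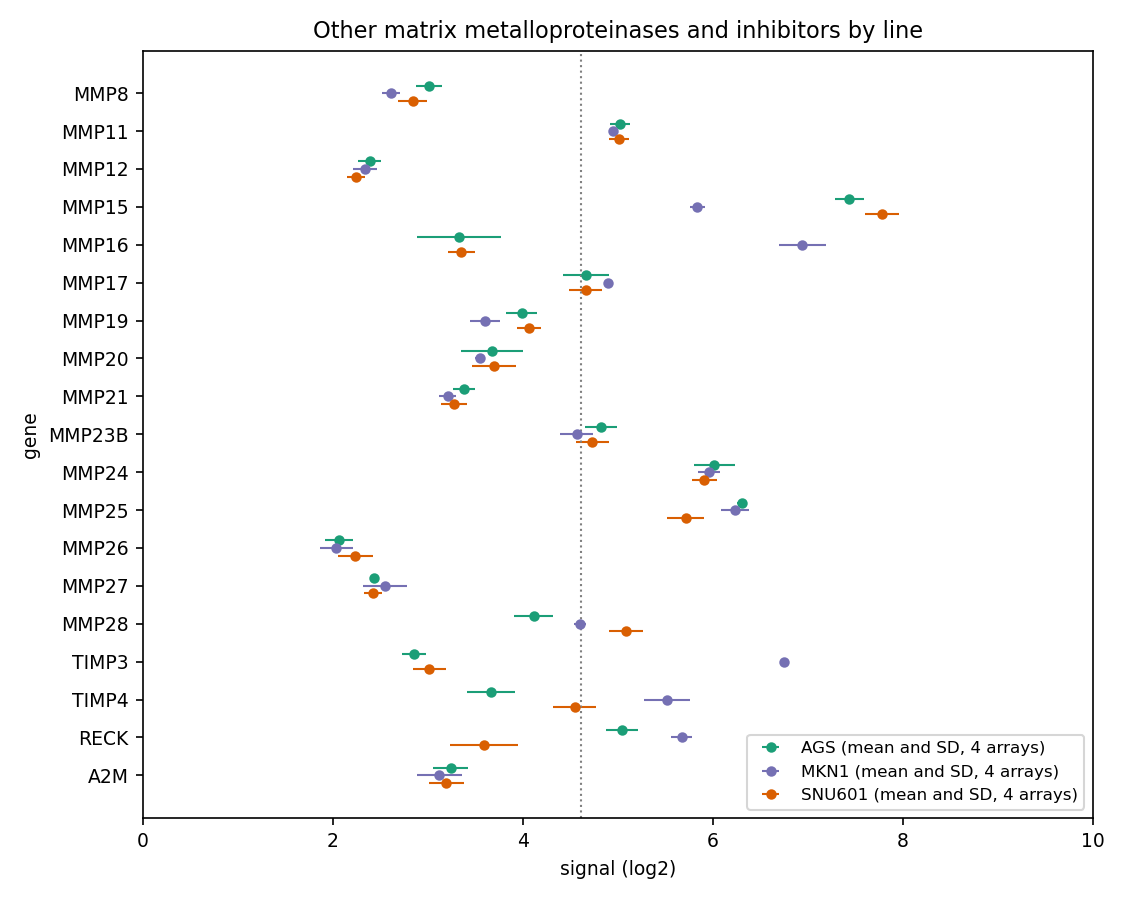
Log2 signal of 15 other metalloproteinases and 4 other inhibitors in AGS, MKN1 and SNU601 cells (points, mean of 4 arrays; bars, SD), with a dotted line at the filter of 4.61. MMP16 and TIMP3 are above the filter in MKN1 alone, at 6.94 and 6.75, and MMP15 is at 7.44 in AGS, 5.84 in MKN1 and 7.78 in SNU601.

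Most genes of proteins that activate or anchor metalloproteinases differed in RNA signal between lines, as did most genes tested, and none differed detectably between treatments. Of 14 listed, 11 had a cluster and all 11 were tested. For each compound against DMSO, 0 of 11 passed, beside 0% of all genes. AGS minus MKN1 called 7 higher and 3 lower, beside 66.3% of all genes called. AGS minus SNU601 called 3 higher and 5 lower, beside 52.7%, and MKN1 minus SNU601 2 higher and 8 lower, beside 63.4%. CD44, the hyaluronan receptor that can hold metalloproteinases at the cell surface, was the lowest of these in AGS relative to MKN1, at -3.72 on the log2 scale (limma adjusted p = 1.274e-10). ST14, the epithelial surface protease matriptase, was higher in AGS than in MKN1 by 2.37 (limma adjusted p = 1.024e-08). BSG, the glycoprotein basigin, known for inducing metalloproteinases in neighbouring cells, differed by 0.06 between AGS and MKN1 and did not pass (limma adjusted p = 0.49). The list of 7 genes of plasminogen activation had no cluster and was not analysed here.

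The ADAM proteases share the metalloproteinase fold and release proteins from the cell surface. Of 15 ADAM and ADAMTS genes listed, 8 had a cluster and 6 were tested, and 0 passed against DMSO with any compound. AGS minus MKN1 called 3 higher and 2 lower, beside 66.3% of all genes called. AGS minus SNU601 called 1 higher and 2 lower, beside 52.7%, and MKN1 minus SNU601 2 higher and 4 lower, beside 63.4%. ADAM19 is counted as lower in AGS minus MKN1 and as higher in MKN1 minus SNU601. It passed the filter through MKN1 (mean 5.30), with AGS (4.49) and SNU601 (4.31) under it, so the filter favoured these calls. ADAM9 was higher in AGS than in MKN1 by 1.87 on the log2 scale (limma adjusted p = 7.319e-10). ADAM17, which releases membrane-bound growth factors, was lower in AGS than in MKN1 by a log2 difference of -0.63 (limma adjusted p = 4.1e-05).

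The genes of AP-1 and ETS factors, known regulators of metalloproteinase promoters, were described beside MMP1. Of 15 listed, 14 had a cluster and 12 were tested, and 0 of 12 passed against DMSO with any compound. With Rhosin, 10 of 12 were on the higher side of 0 in the fit, with a median difference of 0.30 beside -0.02 over all genes. With JK136 it was 7 of 12 with a median of 0.03, and with JK139 5 of 12 with a median of -0.02. On the AGS arrays alone the median difference of the 12 genes was 0.52 with Rhosin, -0.10 with JK136 and 0.01 with JK139, beside -0.03, -0.04 and -0.02 over all genes. With Rhosin, JK136 and JK139 it was 0.11, 0.01 and -0.10 on the MKN1 arrays and 0.15, 0.07 and 0.11 on the SNU601 arrays. No list was tested as a set here.

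FOSL1, a FOS-family partner in AP-1, had AGS differences from DMSO of 1.19 with Rhosin, 0.56 with JK136 and 0.04 with JK139 on the log2 scale. In MKN1 cells its differences were 0.47, 0.53 and 0.12 with Rhosin, JK136 and JK139, and in SNU601 cells 0.21, 0.03 and 0.11. Over the 3 lines, FOSL1 was 0.62 ± 0.18 for Rhosin minus DMSO (SE, limma adjusted p = 0.563). JUN, the main partner of FOS proteins, had 0.65 in AGS, 0.43 in MKN1 and 0.10 in SNU601 cells with Rhosin. ETS1 had -0.02, 0.30 and -0.03 in the same lines with Rhosin, and ETS2 had -0.20, -0.06 and -0.26. JUND had 0.23, -0.14 and 0.01.

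**Figure D4:**
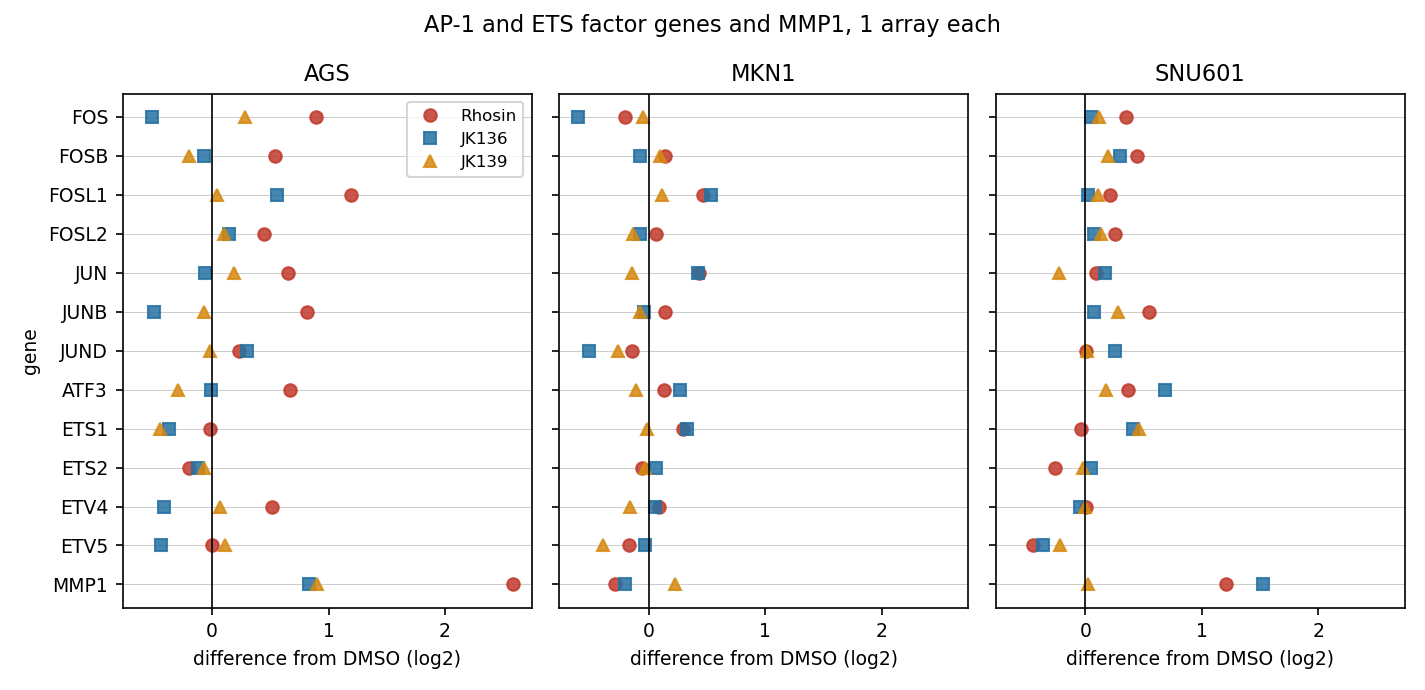
Difference from DMSO on the log2 scale (horizontal axis) of 12 AP-1 and ETS genes and of MMP1 (bottom row) in AGS, MKN1 and SNU601 cells, 1 array against 1 array, with a symbol for each compound. The AGS Rhosin points of most AP-1 genes lie to the right of 0, up to 1.19 for FOSL1, and MMP1 lies further right, at 2.58.

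Cytokines and growth factors known to induce metalloproteinases were listed as 15 genes, of which 9 had a cluster and 4 were tested, HBEGF, LIF, PDGFB and EREG. None passed against DMSO. In AGS cells with Rhosin 4 of 4 were above DMSO, with a median of 0.48 beside -0.03 over all genes. EREG, another EGF receptor ligand, is among these 4 genes in all lines although it lay under the filter on every AGS and SNU601 array. It passed the filter through MKN1 alone, where its mean was 8.63. The median was -0.18 in AGS cells both with JK136 and with JK139, and 1 of 4 was above DMSO with each. With Rhosin, JK136 and JK139 the median was 0.14, 0.31 and 0.10 in MKN1 cells, with 2, 3 and 2 of 4 above DMSO. In SNU601 cells it was 0.15, 0.04 and 0.08, with 2, 2 and 3 of 4 above DMSO. Over all genes the median lay between -0.04 (AGS with JK136) and 0.01 (MKN1 with JK136) in these comparisons. HBEGF, a ligand of the EGF receptor, was 1.11 above DMSO with Rhosin in AGS cells, -0.02 in MKN1 cells and -0.01 in SNU601 cells. LIF, a cytokine of the interleukin-6 family, was 0.60, 0.30 and 0.59 above DMSO in AGS, MKN1 and SNU601 cells with Rhosin, and did not pass over the 3 lines (0.50 ± 0.12, SE, limma adjusted p = 0.532).

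The genes most like MMP1 over the 12 arrays were named by Pearson's r after each line's mean was subtracted, as a description with no p. They were CRNN (r = 0.941), LINC00853 (0.911), MCRS1 (0.901), MSI1 (0.885) and SH3GLB2 (0.877). CRNN moved far less than MMP1: in AGS cells its log2 signal was 5.42 with Rhosin, 5.07 with JK136 and 5.13 with JK139, against 4.97 with DMSO. In SNU601 cells CRNN was 5.34 with Rhosin, 5.33 with JK136 and 4.86 with JK139, against 4.97 with DMSO. Without subtracting the line means, the genes with the highest r were SH2D3A (0.959), SIAH1 (0.958), ITPKC (0.954), GPR35 (0.945) and LAMP3 (0.945). These last follow the low MKN1 level, as in GPR35, whose log2 signal lay between 7.46 and 8.01 in AGS, 5.51 and 5.75 in MKN1, and 7.46 and 7.82 in SNU601. The 12 arrays share lines and treatments, so they are not independent points.

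Some markers of epithelial cells and of other cell types differed between lines, as did most genes tested. Of 9 epithelial markers, 8 had a cluster, and the line means of 8 in AGS, 6 in MKN1 and 8 in SNU601 were above the filter. MKN1 minus SNU601 called 2 of the 8 as higher and 5 as lower, beside 31.1% and 32.3% of all genes. The 5 include ESRP1 and GRHL2, whose MKN1 means, 4.11 and 3.98, lay under the filter. They passed it through AGS and SNU601, so the filter favoured their lower calls. EPCAM, an adhesion molecule of epithelial cells, was lower in MKN1 by a log2 difference of -3.70 (limma adjusted p = 4.5e-11). The keratins KRT18 and KRT19 were higher in MKN1, by 0.25 (limma adjusted p = 0.0189) and 0.39 (limma adjusted p = 0.00663). Of 9 fibroblast markers 3 had a cluster, and LUM, lumican, had a mean of 2.90 in AGS, 8.76 in MKN1 and 3.21 in SNU601 cells. Summed as linear signals, the 3 lay between 32.9 and 39.4 in AGS, 317 and 556 in MKN1 and 34.6 and 40.5 in SNU601 arrays. The fibroblast sums followed LUM, and the other fibroblast markers with a cluster, DCN and THY1, did not share its pattern. DCN had means of 1.90 in AGS, 1.96 in MKN1 and 2.13 in SNU601 cells, under the filter on every array. THY1 had its lowest mean in MKN1 cells, at 4.48. Of 9 leukocyte markers 4 had a cluster, with sums between 1268 and 2527 in AGS, 397 and 554 in MKN1 and 3686 and 4236 in SNU601 arrays. LYZ, which stomach epithelium also makes, had means of 10.83 in AGS, 3.74 in MKN1 and 11.84 in SNU601 cells, and the macrophage marker CD68 had 6.14, 8.65 and 8.33. In the same lines CD14 had 3.33, 4.67 and 3.46, and CSF1R 4.68, 4.57 and 4.80. The leukocyte sums thus followed LYZ, while CD68 and CD14 were highest in MKN1. Arrays of one line correlated at r between 0.978 and 0.988 over all clusters and arrays of different lines between 0.927 and 0.960. The part of these marker differences in the metalloproteinase levels was not tested.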

How the data were processed

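Total RNA from 3 gastric cancer cell lines, each given Rhosin, JK136, JK139 or DMSO, was measured on 12 Human Gene 2.0 ST arrays, 1 for each combination. The deposited values are log2 signals per transcript cluster, between 0.286 and 13.0, with array medians between 4.14 and 4.20. The submitters' processing notes name RMA in Affymetrix Expression Console. RMA corrects background, normalizes by quantiles, which removes shifts shared by a whole array, and summarises probes. Versions, build and annotation release are not given in the sources used here. Array number limits the precision.

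Symbols came from the platform annotation (16098 of 53617 clusters), and each symbol kept its cluster with the highest mean. Genes with a mean under the 40th percentile (4.61) were left out. Linear models were fitted in limma 3.58.1 (R 4.3.3), with terms for treatment and line (6 residual degrees of freedom) and Benjamini-Hochberg adjustment over 8930 genes at 0.05. Arrays of 1 line share that line, which is therefore the block of the paired design. The labels do not say whether cultures were separate, so p-values measure the spread between these arrays. The fit was tested on simulated data. The members and the gene lists were chosen with earlier results of these data known. The text names all members, from each list up to 3 genes with the highest mean and up to 3 with the largest mean difference from DMSO in AGS, and the 5 genes most correlated with MMP1 by each measure. List genes under the filter, named as levels, were chosen after their values were seen. Promoters came from RefSeq (GRCh38.p14), where 4 of 10 members matched. Alternatives changed the normalization, the filter, the model and the arrays.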

Additional observations from a re-analysis of the deposited data

Results flagged for a closer look

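MMP10 was higher with all 3 compounds than with DMSO in AGS cells, by a mean of 0.304 on the log2 scale, and lower with all 3 in MKN1 cells, by a mean difference of -0.374. The lines thus moved in opposite directions, but all values lay under the filter, the 3 compounds of a line share 1 DMSO array, and the difference between lines was not tested.

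MMP13 in MKN1 cells had 1 array apart from the others. With JK136 its log2 signal was 3.24, while the other 3 arrays lay at 3.87 to 3.89, and the gap was 0.968 of the whole range, above the 95% critical value of Dixon's test for 4 arrays. The 4 arrays carry different treatments, so a compound and a single deviating array cannot be told apart. In 18 such groups of 4 arrays tested, chance marks about 5% of groups.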

How the results depend on the processing

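Counts of called genes between treatments stayed at 0 under most alternatives. The exceptions were 1 gene for JK136 minus DMSO without the filter, 1 for Rhosin minus DMSO with an intensity trend and robust prior, and, for Rhosin minus JK136, 1 with every cluster tested, 2 with the trend and robust prior, and 1 at an adjusted p under 0.1. Leaving out an array or a line gave 0 to 3 for Rhosin minus JK136, with 3 only without the MKN1 JK136 array. Without line in the model, that is with no replicate block, and with line as a random block, the 6 comparisons of treatments called 0 genes. For that block, limma's consensus correlation within a line, estimated over genes after the treatment term, was 0.835. With every cluster tested, 16270 clusters were called for AGS minus MKN1, 10011 for AGS minus SNU601 and 15245 for MKN1 minus SNU601. Over all counts and alternatives, 236 values stayed within 1.5 times of those reported and 9 did not. MMP14 JK136 minus DMSO, near 0, became 0.0305 after a further quantile normalization and 0.0130 after centring arrays on their medians. With arrays left out, it lay between -0.102 and 0.0543, MMP14 Rhosin minus DMSO between -0.178 and 0.0742, and MMP14 JK139 minus DMSO between -0.0314 and 0.106. In the same way TIMP1 JK139 minus DMSO lay between -0.0509 and 0.182 and TIMP2 JK136 minus DMSO between -0.167 and 0.0555. None of these had passed the test. Calls lost under some alternatives were those of MMP23B and CD151 for AGS minus MKN1, and of BSG, MMP15, ADAM9 and ADAM15 for AGS minus SNU601, and the cause was not tested. MMP14, TIMP1 and TIMP2 kept their calls between lines under every alternative run. No member had a further cluster, so that alternative gave no value. Rescaling moved differences by at most 0.105 and levels by at most 0.0374.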
